A study of Homo sapiens with 6 samples.

Results

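RNA polymerase II (Pol II) occupancy after adding α-ketoglutarate (αKG) to SK-Hep1 cells depleted of malic enzyme 2 (ME2) was described from 2 peak lists, that of cells given siRNA against ME2 with αKG added (siME2+αKG, labelled sime2+αKG) and that of cells given the siRNA alone (siME2, labelled sime2). SK-Hep1 is an established human line derived from a liver adenocarcinoma. Every listed region on chromosomes 1 to 22 and X entered, which gave 58121 regions, 28949 from siME2+αKG and 29172 from siME2, of 89811 in the 3 lists of the series. The third list, from a control condition (siCtrl, labelled nc), is quoted only as a side value for the same genes. The labels give neither the dose or duration of αKG nor the siRNA sequence, and both groups compared here carry the knockdown. The series holds 6 samples, a ChIP and an input library for each of 3 conditions. The ChIP titles of siME2 and siCtrl end in the number 2, and that of siME2+αKG carries no number. The labels do not say what this means, and any difference in preparation cannot be told apart from αKG. Each condition had 1 ChIP library, so no replicate check or test between conditions could be made, and all intervals below are 95% exact binomial intervals that cover counting error only.

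Pol II transcribes protein-coding genes. It assembles at the promoter, usually pauses a short way past the transcription start site, is released into the gene body by the kinase P-TEFb, and slows past the polyadenylation site before it leaves the template. ChIP signal at a promoter therefore mixes initiating and paused enzyme, signal in the body reports elongating enzyme, and signal past the gene end reports enzyme that is terminating. ME2 works in mitochondria, where it oxidises malate and releases pyruvate, and αKG is an intermediate of the tricarboxylic acid (TCA) cycle and a cosubstrate of histone, DNA and prolyl hydroxylases and demethylases. The title of the series names αKG-driven Pol II transcription of cyclin D1 as its question.

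The 250 bases before the annotated start of 5 genes are shown as examples of promoters named below, 3 higher in siME2+αKG and 2 lower. They were read from GRCh37 on the strand of each gene. They cover chr1:149823920-149824169 (plus strand) for H3C15, chr16:58426125-58426374 (plus) for GINS3, chr14:50154933-50155182 (minus) for POLE2, chr21:43374128-43374377 (minus) for C2CD2 and chr19:34972413-34972662 (plus) for WTIP. Capitals mark matches, on either strand, to 8 motifs searched for: the TATA box TATAAA, the CCAAT box, the cell cycle genes homology region (CHR) TTTGAA, the E2F site TTTCGCGC, the GC box GGGCGG, the cAMP response element (CRE) TGACGTCA, the AP-1 site TGANTCA and the E-box CACGTG.
H3C15: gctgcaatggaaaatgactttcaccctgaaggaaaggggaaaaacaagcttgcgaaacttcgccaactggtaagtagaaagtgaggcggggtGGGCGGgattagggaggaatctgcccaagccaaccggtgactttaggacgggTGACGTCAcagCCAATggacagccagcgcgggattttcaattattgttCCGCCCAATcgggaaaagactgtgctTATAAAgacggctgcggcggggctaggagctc
GINS3: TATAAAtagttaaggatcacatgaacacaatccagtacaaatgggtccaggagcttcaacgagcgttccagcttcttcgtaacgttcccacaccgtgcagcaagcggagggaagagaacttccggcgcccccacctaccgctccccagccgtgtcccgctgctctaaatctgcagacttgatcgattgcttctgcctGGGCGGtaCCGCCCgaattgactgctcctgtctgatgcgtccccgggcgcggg
POLE2: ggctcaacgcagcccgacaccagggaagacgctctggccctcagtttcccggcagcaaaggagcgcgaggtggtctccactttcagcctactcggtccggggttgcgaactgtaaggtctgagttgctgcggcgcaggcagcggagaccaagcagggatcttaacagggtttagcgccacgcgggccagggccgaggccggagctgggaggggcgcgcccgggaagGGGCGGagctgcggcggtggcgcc
C2CD2: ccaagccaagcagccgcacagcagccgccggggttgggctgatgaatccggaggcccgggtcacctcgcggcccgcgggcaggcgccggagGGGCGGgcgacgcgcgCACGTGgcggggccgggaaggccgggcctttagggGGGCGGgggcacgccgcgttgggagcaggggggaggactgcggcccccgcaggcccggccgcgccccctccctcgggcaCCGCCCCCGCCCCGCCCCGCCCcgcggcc
WTIP: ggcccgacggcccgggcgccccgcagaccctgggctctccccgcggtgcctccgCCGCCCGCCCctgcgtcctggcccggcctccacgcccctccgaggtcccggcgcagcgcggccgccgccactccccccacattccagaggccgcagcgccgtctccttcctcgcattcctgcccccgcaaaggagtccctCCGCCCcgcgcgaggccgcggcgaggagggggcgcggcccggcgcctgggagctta

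The histone promoter H3C15 held a TATA box 32 bases before the start, 2 CCAAT boxes, of which 1 overlaps a reverse GC box, and a CRE 106 bases before the start. C2CD2, with 82.8% G and C, held 6 GC boxes and 1 E-box, and WTIP, with 80.4%, held 3 GC boxes of which 2 overlap. H3C15 had 53.6% G and C, GINS3 57.2% and POLE2 68.8%. The promoters TSPAN1 and RNF152 rank among the first 3 in their direction but are not shown. Their summits lie more than 1 kb from the canonical start, within 1 kb of another annotated start. GINS3 and POLE2 took a place for their role in DNA replication, a choice made after their values were seen.

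The siME2+αKG list rested on 12955596 filtered ChIP tags and the siME2 list on 10445326, with 13006504 for siCtrl. The lists covered 26.1 Mb in siME2+αKG, 23.8 Mb in siME2 and 29.3 Mb in siCtrl, with median peak lengths of 611, 554 and 603 bp in the same order. Regions of at least 5 kb numbered 254 in siME2+αKG, 153 in siME2 and 307 in siCtrl. A height below is the number of extended ChIP fragments over a summit per 1000000 filtered ChIP tags, after the caller's scaling of the siME2+αKG library was undone. The median listed peak had 22 fragments (height 1.70) in siME2+αKG and 19 fragments (height 1.82) in siME2, and the lowest had 8 and 7. Peaks with a local input background of at least 100 fragments numbered 0 in siME2+αKG, 5 in siME2 and 1 in siCtrl, and the 4 tallest siME2 peaks, on chromosomes 1 and 10, were of this kind, the tallest with 389 fragments and an authors' fold enrichment of 1.34. Fragment length was estimated at 221 bp in siME2+αKG and 201 bp in siME2, which alone would set heights 0.14 apart on the log2 scale, and the part of this in the results was not tested. Of the markers checked against the cell line's label, none of 7 hepatocyte, 4 annotated endothelial or 5 leukocyte genes had a promoter summit in any of the 3 lists. The endothelial gene CDH5 had a summit at its end, with 27 fragments in siME2+αKG, 31 in siME2 and 38 in siCtrl. The mesenchymal genes VIM (116 fragments in siME2+αKG, 99 in siME2, 140 in siCtrl) and SPARC (68, 61 and 82 in the same order) had promoter summits. Another mesenchymal gene, THY1, gave a weaker picture. The THY1 promoter held 16 fragments in siME2+αKG and 16 in siCtrl, and siME2 listed no summit for it. Peaks covered 0% of the gene bodies of THY1, FN1, COL1A1 and COL1A2 in all 3 lists. In siME2+αKG they covered 95.5% at VIM and 37.4% at SPARC. Only 4829 of 15616 gene bodies compared had any coverage, so a value of 0% says little about a single gene.

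At CCND1, which encodes cyclin D1, promoter Pol II was at a height of 6.95 in siME2+αKG (90 fragments), 6.99 in siME2 (73) and 7.53 in siCtrl (98), a log2 ratio of siME2+αKG over siME2 of -0.01 (interval -0.47 to 0.46). In siME2+αKG the promoter peak spanned chr11:69451398-69463136 on hg19. At the gene end the heights were 3.24 in siME2+αKG (42 fragments), 3.06 in siME2 (32) and 3.54 in siCtrl (46), a log2 ratio of 0.08 (-0.62 to 0.79). In the gene body the highest summits held 17 fragments in siME2+αKG, 18 in siME2 and 22 in siCtrl, a log2 ratio of -0.39 (-1.44 to 0.65). The intervals of all 3 places included 0, so no difference at CCND1 was detectable at this depth between siME2+αKG and siME2. At ME2, the gene targeted by the siRNA, the promoter held 63 fragments in siME2+αKG, 56 in siME2 and 71 in siCtrl (heights 4.86, 5.36 and 5.46 in that order), and no list held a body or end summit. An siRNA acts on the transcript, so Pol II at the ME2 promoter does not check the knockdown.

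Most promoters carried nearly the same Pol II height in both libraries, with a small shift towards lower values in siME2+αKG. A promoter summit, the highest within 1 kb of any annotated start, was listed for 12093 genes in siME2+αKG and 12233 in siME2, and 11824 genes had one in both. Their median height was 4.01 in siME2+αKG and 4.31 in siME2, and the median log2 ratio was -0.08 (quartiles -0.26 and 0.08). The median was -0.22 per base of fragment length and -0.23 with the pileup as deposited. Of the 11824, 165 (1.4%) were at least 1.5-fold higher in siME2+αKG and 524 (4.43%) at least 1.5-fold lower, while 36.8% were higher by any amount. The interval lay above 0 for 59 promoters (0.499%) and below 0 for 320 (2.71%). The median was below 0 on every chromosome used, from -0.13 on chromosome 20 to -0.05 on chromosome 12. Relative to the median promoter the counts became 259 higher and 340 lower, per base of fragment length 79 and 1126, and with the pileup as deposited 73 and 1215, so the balance of the calls depends on the scale.

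The ratio moved with base composition. In the 1 of 4 equal groups of promoters with the least G and C before the start (21.2% to 59.6%), the median log2 ratio was -0.04, with 2.37% at least 1.5-fold higher and 3.15% lower. In the group with the most (73.2% to 96.4%), it was -0.15, with 0.677% higher and 8.09% lower. Promoters at least 1.5-fold higher had a median G and C content of 60.8%, those at least 1.5-fold lower 71.6%, and all promoters 66.4%. Promoters called lower had medians of 27 fragments in siME2+αKG and 37 in siME2 and those called higher 41 and 19, against 52 and 45 over all promoters. Whether G and C content sets any single value was not tested.

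Each listed peak has 1 summit, also where it spans several start sites, so the highest summits of a gene in the 2 lists can lie at different places. Of the 8 promoters with the largest interval bound in each direction, 6 of the higher and 8 of the lower had summits more than 200 bp apart. SON, for example, gave 62 fragments in siME2+αKG and 11 in siME2 at summits 9635 bp apart, and ERBIN gave 12 and 73 fragments at summits 141811 bp apart. These compare different start sites and are not read further. The same rule was therefore applied, after these values had been seen, to the 10068 promoters whose summits lay within 200 bp of each other, of which 129 (1.28%) were at least 1.5-fold higher in siME2+αKG and 423 (4.2%) lower. Intervals lay above 0 for 45 (0.447%) and below 0 for 266 (2.64%), and 36.7% were higher by any amount. Each interval holds for a single gene, so among 10068 promoters some leave out 0 by counting error alone. Whether the counts exceed that share was not tested. Genes named below by interval bound, at promoters, bodies and ends, are the extremes of their rankings. Their intervals are not corrected for this choice and do not by themselves establish a change. For genes named from this pairing the siCtrl value is that of a summit within 200 bp, and for list members that of the gene's own highest summit.

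Among these, several genes of cell division and DNA replication stood at the higher end. BIRC5, which encodes the mitotic and anti-apoptotic protein survivin, had 51 fragments in siME2+αKG (height 3.94), 19 in siME2 (1.82) and 48 in siCtrl (3.69), a log2 ratio of siME2+αKG over siME2 of 1.11 (0.33 to 1.96). GINS3, a subunit of the replicative helicase complex, had 46 fragments in siME2+αKG, 18 in siME2 and 47 in siCtrl, a ratio of 1.04 (0.23 to 1.92). POLE2, a subunit of DNA polymerase epsilon, had 45, 18 and 49 fragments in the same order and a ratio of 1.01 (0.19 to 1.89). In all 3 genes the siME2+αKG and siCtrl heights lay close together and the siME2 height was the lowest. Picking genes by a high ratio of siME2+αKG over siME2 favours siME2 values that are low by counting error. A siCtrl height above that of siME2 can follow from this choice, and whether it does was not tested.

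The first entry by interval bound was H3C15, a replication-dependent histone H3 gene, with 102 fragments in siME2+αKG (height 7.87) and 44 in siME2 (4.21), a ratio of 0.90 (0.38 to 1.45). It has a near-identical copy, H3C14, so reads of the pair may have been split between them. No siCtrl summit lay within 1 kb of its start. With a window of 2000 bp around starts, the highest summits gave H3C15 a ratio of 0.27 with an interval that includes 0. LDHA, lactate dehydrogenase A, which interconverts pyruvate and lactate, was the tallest of the set, with 114 fragments in siME2+αKG (8.80), 59 in siME2 (5.65) and 111 in siCtrl (8.53), a ratio of 0.64 (0.17 to 1.12). The other entries were the tetraspanin TSPAN1 (32 fragments in siME2+αKG, 10 in siME2), the aminopeptidase ANPEP (77 and 36) and a summit shared by PSENEN, a gamma-secretase subunit, and the splicing gene U2AF1L4 (70 and 32). For TSPAN1 the siCtrl value, 14 fragments, stood near the siME2 value, and its ratio of 1.37 became 0.88, with an interval that includes 0, in the window of 2000 bp.

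The promoters lowest in siME2+αKG relative to siME2 belonged to genes of varied roles. C2CD2 had 34 fragments in siME2+αKG (height 2.62), 61 in siME2 (5.84) and 72 in siCtrl (5.54), a log2 ratio of -1.15 (-1.80 to -0.53). WTIP, a LIM domain protein of cell junctions and Hippo signalling, had 30, 54 and 56 fragments in the same order and a ratio of -1.16 (-1.85 to -0.49). RNF152, a ubiquitin ligase gene, had 14 fragments in siME2+αKG and 31 in siME2, GRHL3, an epithelial transcription factor gene, 26 and 46, and INKA1, an inhibitor of the kinase PAK4, 30 and 51. TBXA2R, the thromboxane receptor gene (23 and 41), RGS17, a regulator of G protein signalling (15 and 30), and OPLAH, 5-oxoprolinase (48 and 73), completed the set. The siCtrl height of GRHL3, 2.15, was near that in siME2+αKG (2.01) and below that in siME2 (4.40), whereas for INKA1 the siCtrl height, 4.92, was near that in siME2 (4.88) and above that in siME2+αKG (2.32).

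**Figure D1:**
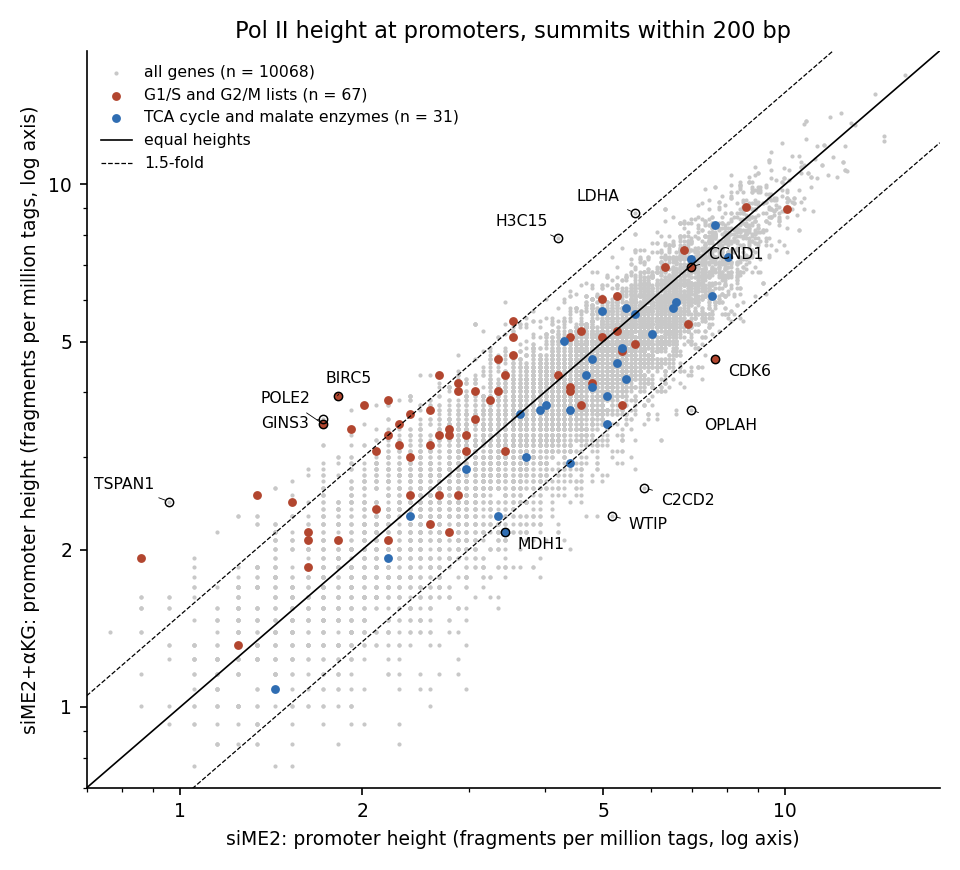
Promoter height in siME2+αKG (vertical) against siME2 (horizontal), both in fragments per 1000000 filtered ChIP tags on log axes, for the 10068 genes whose summits lie within 200 bp. Grey points are all genes, red points members of the G1/S and G2/M lists, blue points TCA cycle and malate enzymes, and the dashed lines mark 1.5-fold; BIRC5, GINS3 and POLE2 lie above the upper line and C2CD2 and WTIP below the lower one.

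**Figure D2:**
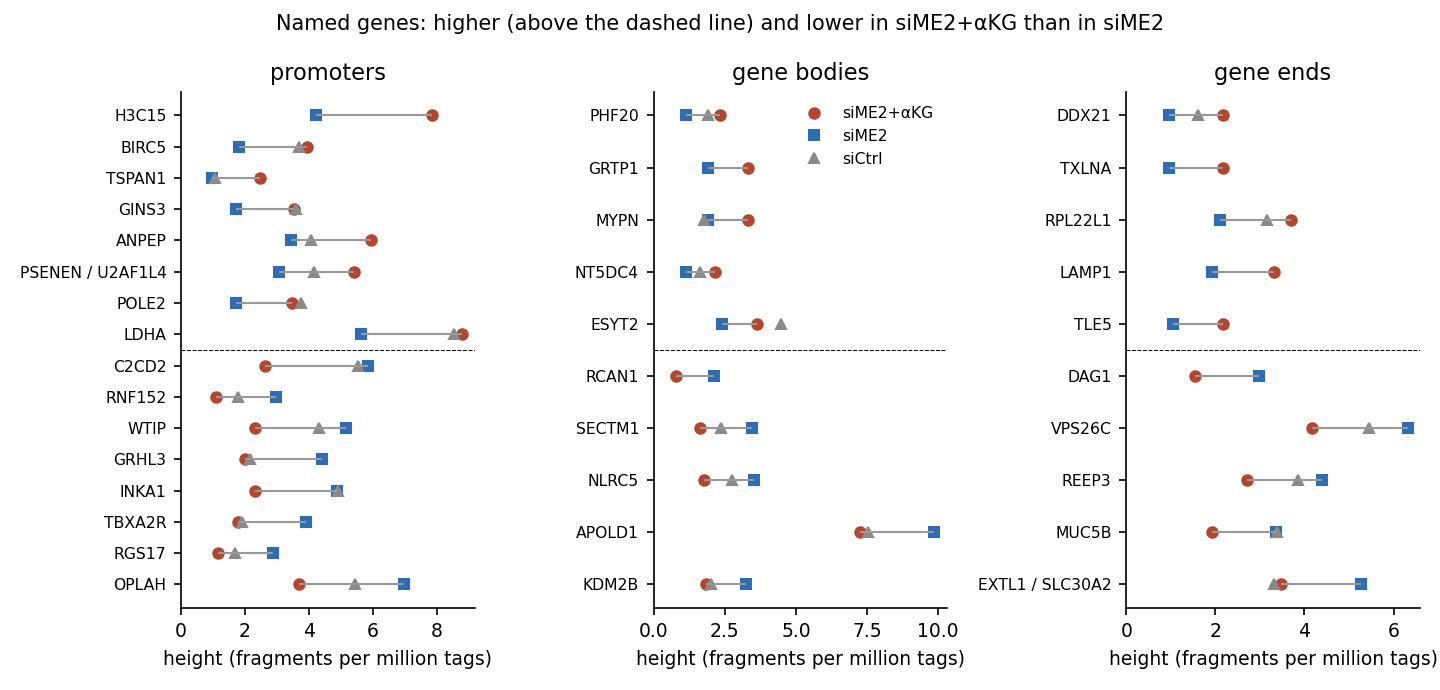
Height in fragments per 1000000 filtered ChIP tags (horizontal) of the genes named by the rule among summits within 200 bp, at promoters (left), gene bodies (middle) and gene ends (right). Circles are siME2+αKG, squares siME2 and triangles siCtrl, a missing triangle means no siCtrl summit within 200 bp, and genes above the dashed line were higher in siME2+αKG; at BIRC5 the circle stands at 3.94, the square at 1.82 and the triangle at 3.69.

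Promoters of cell cycle genes were mostly higher in siME2+αKG than in siME2. Of the 41 genes of the G2/M and mitosis list, 41 had a promoter summit in siME2+αKG, 38 in siME2 and 41 in siCtrl. Of the 38 with both, 28 (73.7%) were higher in siME2+αKG, against 36.8% of all promoters, 8 were at least 1.5-fold higher and 0 at least 1.5-fold lower, against 1.4% and 4.43% of all. The median log2 ratio of the list was 0.28, against -0.08 over all promoters. Beside BIRC5 the 8 were CCNB1 and CCNB2, the B-type cyclins (45 and 47 fragments in siME2+αKG, 22 and 25 in siME2), their kinase CDK1 (45 in siME2+αKG, 24 in siME2), the mitotic kinases PLK1 (32 and 16) and NEK2 (43 and 23), securin, PTTG1 (56 and 28), and its protease separase, ESPL1 (33 and 14). The highest promoter summit of siCtrl held 42 fragments at CCNB1, 55 at CCNB2, 60 at CDK1, 39 at PLK1, 33 at NEK2, 69 at PTTG1 and 38 at ESPL1. The summits of CCNB1 lay 526 bp apart, those of the other 7 within 200 bp. Only BIRC5 and PTTG1 of the 8 had intervals above 0. Per base of fragment length the list's median was 0.14.

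The G1/S and replication list held 45 genes, of which 43 had a promoter summit in siME2+αKG, 37 in siME2 and 45 in siCtrl. Of the 37 with both, 25 (67.6%) were higher in siME2+αKG, 6 were at least 1.5-fold higher and 1 was lower, with a median log2 ratio of 0.16, which was 0.024 per base of fragment length. The 6 were POLE2, the clamp loader subunit RFC5 (25 fragments in siME2+αKG, 9 in siME2), the licensing inhibitor geminin, GMNN (50 and 23), the ubiquitin ligase adaptor DTL (49 and 21), the ribonucleotide reductase subunit RRM2 (71 and 37) and cyclin E2, CCNE2 (44 and 20). The one gene lower was CDK6, with 60 fragments in siME2+αKG and 80 in siME2. The promoters of this list were of middling Pol II height, 3.86 at the median in siME2+αKG and 3.45 in siME2. Over all matched promoters of height 3.12 to 4.30, the second of 4 equal groups, the median ratio was -0.09 and 38.1% were higher. Of 30 annotated replication-dependent histone genes, 18 had a summit in both lists, 15 of them higher in siME2+αKG, with a median of 0.21 (0.073 per base of fragment length), and 0 of them passed 1.5-fold in either direction by this count, in which H3C15 was not a member. Histone genes share sequence, so the values of single copies are uncertain. Neighbouring histone genes can also share a summit, as H2AC6 and H2BC4 did, so the histone counts include some summits more than once.

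Relative to the median of all promoters, the list medians stood at 0.36 for G2/M, 0.24 for G1/S and 0.29 for histones. Relative to promoters of like G and C content (4 equal groups), an alternative added after the data were seen, they were smaller. They then stood at 0.34 for G2/M, 0.22 for G1/S and 0.25 for histones. Depth also differed, and 6 of the 45 G1/S genes and 3 of the 41 G2/M genes had a promoter summit in siME2+αKG alone. MCM3, a subunit of the replicative helicase, had 37 fragments in siME2+αKG, 47 in siCtrl and no listed peak within 5 kb of that summit in siME2, where 29.8 fragments would be its share at the depth of that library. The DNA ligase gene LIG1 (33 fragments), the clamp loader gene RFC3 (31), the kinetochore genes SPC25 (30) and KNL1 (27), the primase gene PRIM1 (22), the spindle checkpoint gene BUB1B (21), histone H3C10 (15) and E2F2 (12) were likewise listed in siME2+αKG and not within 5 kb in siME2. These were 9 of 103 promoters listed in siME2+αKG for the 3 lists, against 1.34% of all. In the other direction they were 0 of 95 listed in siME2, against 2.35% of all.

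**Figure D3:**
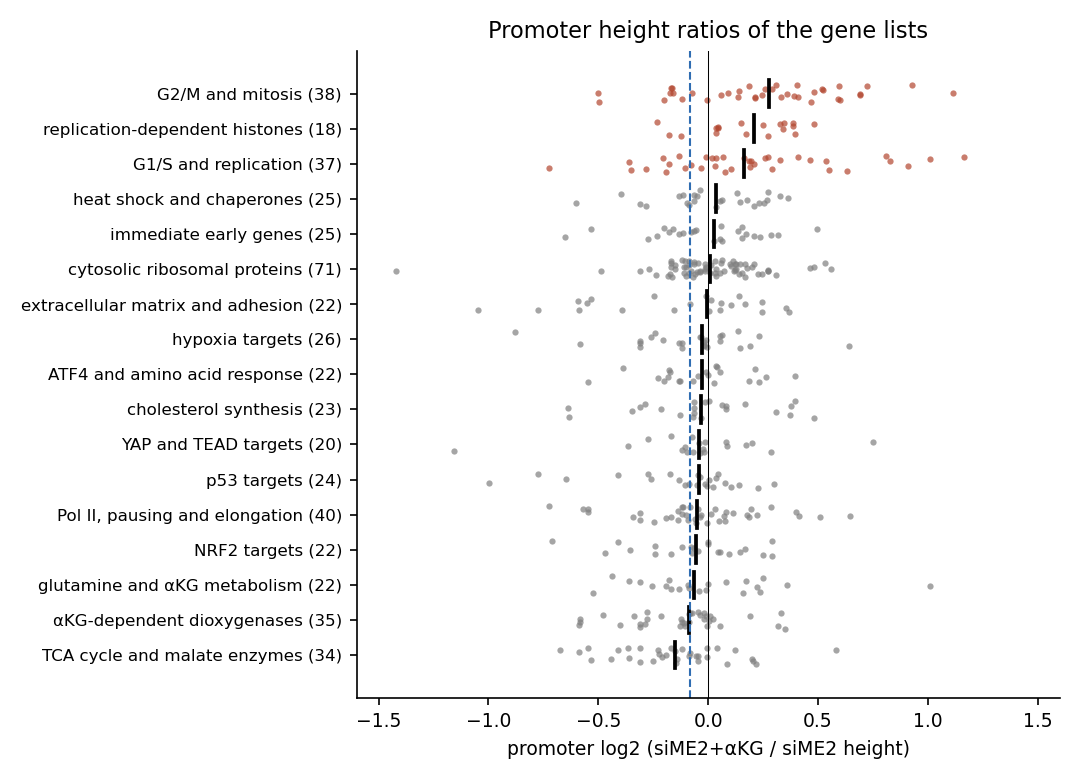
Promoter log2 ratio of siME2+αKG over siME2 (horizontal) for each gene with a summit in both lists, by gene list with the number of genes in brackets. Black bars are list medians, the dashed line is the median of all promoters at -0.08, and red points mark the 3 cell cycle and histone lists, whose medians of 0.28, 0.21 and 0.16 lie to the right of the others.

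Promoters of genes in the pathways closest to αKG showed small differences. All 34 TCA cycle and malate enzyme genes had promoter summits in both lists, 27 were lower and 7 higher in siME2+αKG, against 36.8% higher over all promoters, and the median log2 ratio was -0.15, a step of -0.07 from the median of all promoters. Of these, 0 were at least 1.5-fold higher and 2 lower, near the 1.4% and 4.43% of all promoters, MDH1, cytosolic malate dehydrogenase (28 fragments in siME2+αKG, 36 in siME2), and SLC25A1, the citrate carrier (38 and 46), both with intervals that include 0. Among the malic enzymes, ME1 had 14 fragments in siME2+αKG and 15 in siME2, and ME3 had 48 and 41. The siME2+αKG library held more tags, and as heights both genes were lower in siME2+αKG. The 35 αKG-dependent dioxygenase genes with both summits had a median of -0.09, with the histone demethylase genes KDM3A (58 and 70 fragments) and KDM2A (47 and 57) lower with intervals below 0. The 22 genes of glutamine and αKG metabolism had a median of -0.06. The amino acid transporter genes SLC38A2 (135 and 85 fragments, log2 ratio 0.36, interval -0.05 to 0.77) and SLC1A5 (102 and 73, 0.17) stood at its higher end, and GOT2, mitochondrial aspartate aminotransferase (57 and 66, -0.52), at its lower.

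Most of the other lists lay near the median of all promoters. Their median log2 ratios ran from -0.05 for NRF2 targets and for Pol II, pausing and elongation genes to 0.03 for heat shock genes and immediate early genes. Among the transcription genes, HEXIM1, an inhibitor of P-TEFb, had 127 fragments in siME2+αKG and 77 in siME2 (0.41, interval -0.01 to 0.84), while NELFB, a subunit of the pausing factor NELF, had 79 and 93 (-0.55, upper bound -0.10) and the elongation scaffold AFF4 73 and 86 (-0.55, -1.02 to -0.08). Of 22 extracellular matrix and adhesion promoters, 4 were at least 1.5-fold lower, MYL9 (27 fragments in siME2+αKG, 45 in siME2), ACTA2 (37 and 51), COL5A1 (47 and 57) and COL6A2 (37 and 45), and 0 were that much higher, against 4.43% and 1.4% of all promoters. By any amount, 11 of the 22 were higher in siME2+αKG and 11 lower. The median log2 ratio of this list was -0.003, against -0.08 over all promoters. The ACTA2 summit also counts for the neighbouring death receptor gene FAS. The 3 of 24 p53 targets that were lower by as much were FAS, CCNG1 (61 and 77) and SPATA18 (18 and 29), while CDKN1A, which encodes p21, had 135 fragments in siME2+αKG and 93 in siME2 (0.23, -0.16 to 0.62).

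Motif content was compared in the 250 bases before the start, among promoters whose summits lay within 200 bp of each other. Only those with an annotated canonical start within 1 kb of the summit entered. They were 117 at least 1.5-fold higher, 371 at least 1.5-fold lower and 9230 in all. A CCAAT box was present in 50.4% of the higher promoters (41.0% to 59.8%), 24.5% of the lower ones (20.2% to 29.2%) and 35.2% of all. The CHR letters, known from promoters of mitotic genes, were present in 13.7% (8.02% to 21.3%), 5.66% (3.54% to 8.52%) and 6.75% in the same order. The GC box had the opposite order, 58.1% of the higher (48.6% to 67.2%), 83.0% of the lower (78.8% to 86.7%) and 74.96% of all promoters. The TATA letters were in 5.98%, 2.16% and 4.26%, the CRE in 5.13%, 1.62% and 3.25%, the E2F letters in 1.71%, 0.539% and 0.997%, the AP-1 letters in 3.42%, 2.43% and 2.81%, and the E-box in 3.42%, 6.47% and 9.41%, in the same order. These motifs differ in base composition, and over all promoters with a summit in both lists G and C content differed between the higher and lower groups. The part of base composition in these shares was not tested, and a match of letters is not evidence of binding.

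Inside genes, Pol II summits were lower and thinner. A gene body summit lay inside the canonical transcript, more than 1 kb before the end and more than 1 kb from any protein-coding start. It was listed for 2503 genes in siME2+αKG and 2380 in siME2. In all, 1733 genes had both, with median heights of 1.47 in siME2+αKG and 1.53 in siME2. The median log2 ratio was -0.01, with 92 (5.31%) at least 1.5-fold higher and 110 (6.35%) lower, 48.3% higher by any amount, and intervals above 0 at 9 (0.519%) and below 0 at 25 (1.44%). Of those intervals, 8 above and 19 below came from summits more than 200 bp apart. Of these 1733, 730 had summits within 200 bp of each other, 33 of them (4.52%) at least 1.5-fold higher and 50 (6.85%) lower, with 45.2% higher by any amount, and only PHF20, a reader of histone methylation, had an interval above 0 among them (0.137%), with 30 fragments in siME2+αKG and 12 in siME2, in an intron (log2 ratio 1.01, 0.00 to 2.11). The PHF20 interval included 0 per base of fragment length (0.87) and with the pileup as deposited (0.86). The next higher entries were GRTP1 (43 and 20 fragments), MYPN, NT5DC4 and ESYT2 (47 and 25), all with intervals that include 0. Intervals below 0 were found at 6 bodies (0.822%). SECTM1 had 21 fragments in siME2+αKG and 36 in siME2 (-1.09, -1.94 to -0.27), and NLRC5, a regulator of MHC class I genes, had 23 and 37 (-0.997, -1.81 to -0.21). RCAN1, a calcineurin regulator gene, had 10 and 22 (-1.45, -2.69 to -0.31), APOLD1 had 94 and 103 (-0.44, -0.86 to -0.03), and KDM2B, an αKG-dependent histone demethylase gene, had 24 and 34 (-0.81, -1.63 to -0.02). The internal summits of APOLD1 and NLRC5 lay in exons 2 and 32 of the canonical transcripts, and those of SECTM1, RCAN1 and KDM2B in introns. The summits of APOLD1 and SECTM1 lay 1275 and 1296 bases past the canonical start, just beyond the 1 kb limit. Starts of non-coding genes were not used, so a body or end summit can lie at such a start.

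At gene ends the median ratio was near 0 on the scale of heights used here. A gene end summit lay from 1 kb inside to 5 kb past the end and more than 1 kb from any protein-coding start. It was listed for 3650 genes in siME2+αKG and 3477 in siME2, and for 2687 in both, with a median log2 ratio of 0.01. That direction depends on the scale: per base of fragment length the median was -0.13, with 87 ends at least 1.5-fold higher and 261 lower, and with the pileup as deposited -0.14, with 85 and 276. Of these, 178 (6.62%) were at least 1.5-fold higher in siME2+αKG and 135 (5.02%) lower, with intervals above 0 at 20 (0.744%) and below 0 at 27 (1.0%), of which 17 and 21 came from summits more than 200 bp apart. Among the 1097 whose summits lay within 200 bp, the counts were 60 (5.47%) and 43 (3.92%), with a median of -0.00 and 49.2% higher, and intervals lay above 0 at 3 (0.273%) and below 0 at 6 (0.547%). The RNA helicase gene DDX21 (28 fragments in siME2+αKG, 10 in siME2, 21 in siCtrl), TXLNA (28 and 10) and RPL22L1, a paralogue of a ribosomal protein gene (48 and 22, with 41 in siCtrl), were the 3 above, with log2 ratios of 1.17, 1.17 and 0.81. All 3 intervals included 0 per base of fragment length (log2 ratios 1.04, 1.04 and 0.68) and with the pileup as deposited (1.02, 1.02 and 0.66). The summits of DDX21 and TXLNA lay 1896 and 695 bases past the end. LAMP1 (43 and 20) shares its summit with the body entry GRTP1, a gene of the opposite strand, and TLE5 had 28 and 11. At the lower side, DAG1 had 20 fragments in siME2+αKG and 31 in siME2, VPS26C 54 and 66, REEP3 35 and 46, MUC5B 25 and 35, and a summit at the ends of EXTL1 and SLC30A2 45 and 55, with log2 ratios from -0.94 to -0.60.

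Within genes that had both a promoter and an end summit in both lists, the end was on balance higher relative to its own promoter in siME2+αKG. Over 2375 such genes the median log2 height of the end relative to the promoter was -1.54 in siME2+αKG and -1.65 in siME2. The difference had a median of 0.11, was above 0 in 59.6% of genes, and was at least 1.5-fold in 318 (13.4%) upwards and in 137 (5.77%) downwards. With both pairs of summits within 200 bp, 787 genes gave a median difference of 0.11, and 94 (11.9%) against 33 (4.19%) past 1.5-fold. For gene bodies the median difference was 0.09 over 1425 genes, 190 (13.3%) past 1.5-fold upwards and 89 (6.25%) downwards, and 0.06 over the 432 with matched summits, 49 (11.3%) upwards and 29 (6.71%) downwards. This ratio does not depend on the tag totals. The promoters of genes with an end summit had the same median log2 ratio as those without, -0.08 in both groups. A summit has to be listed in both libraries to enter, and end summits were thin, with medians of 20 fragments in siME2+αKG and 16 in siME2. Among summits within 200 bp, the tallest of 4 equal groups of ends had a median log2 ratio of -0.04 with 44.9% higher, and the lowest group 0.01 with 50.5% higher. For bodies the tallest group gave -0.07 with 37.7% higher, and the lowest 0.01 with 50.3%, against -0.07 with 35.4% in the tallest promoters. The part of the listing threshold in these differences was not tested.

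**Figure D4:**
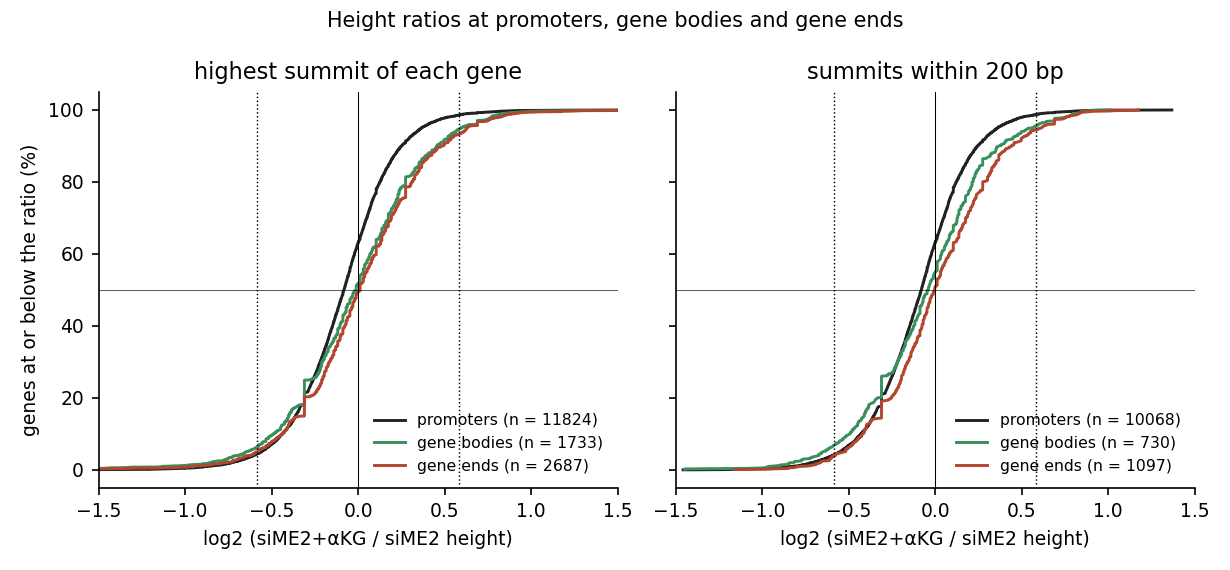
Cumulative share of genes (vertical, percent) at or below each log2 ratio of siME2+αKG over siME2 height (horizontal) at promoters, gene bodies and gene ends, for the highest summit of each gene (left) and for summits within 200 bp (right). Dotted lines mark 1.5-fold; the promoter curve crosses 50% at -0.08 in both panels and the curves of bodies and ends cross nearer to 0.

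Ribosomal protein genes, which are short, heavily transcribed and needed for protein synthesis, were near even at promoters. At gene ends with a summit in both lists they were mostly higher in siME2+αKG, but fewer ends were listed there than in siME2. Over the 71 of 72 genes with both promoter summits, 36 were higher and the median log2 ratio was 0.01. An end summit was listed for 48 of the 72 in siME2+αKG, 57 in siME2 and 52 in siCtrl. It was in siME2+αKG and not siME2 at 1 gene and the reverse at 10, against 963 and 790 over all genes. At gene ends, 47 had summits in both lists, 38 of them were higher in siME2+αKG and the median was 0.27, against 50.5% higher and 0.01 over all ends. Fragment length alone would set these heights 0.14 apart on the log2 scale, and its part was not tested. Past 1.5-fold, 7 ends were higher and 4 lower, against 6.62% and 5.02% of all ends. The 4 lower ones, among them RPL23, had summits 875 to 2788 bp apart, and among the 23 pairs within 200 bp the median was again 0.27. RPS9 had 44 fragments at its end in siME2+αKG, 22 in siME2 and 48 in siCtrl (0.69, lower bound -0.08). RPL21 had 34 in siME2+αKG and 16 in siME2 (0.78, -0.12 to 1.73), and RPL19 had 58 and 34 (0.46, -0.18 to 1.12). The interval of each of these ends includes 0. Ribosomal protein genes have many processed pseudogenes, so some of their reads may have been placed elsewhere by the authors' aligner.

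Peaks spread further through gene bodies in siME2+αKG. Over 15616 gene bodies of at least 5 kb after 1 kb was trimmed from each side, listed peaks covered 6.87 Mb in siME2+αKG, 5.79 Mb in siME2 and 7.89 Mb in siCtrl. Coverage was at least 10 points higher in siME2+αKG at 212 bodies (1.36%) and at least 10 points lower at 51 (0.327%). The siME2 library had the fewest tags and the shortest peaks, and covered length grows with both, so the direction cannot be told apart from depth. Rises of at least 10 points were most frequent where coverage was high. Among 142 bodies with a mean coverage of at least 40%, 43.7% were at least 10 points higher and 8.45% lower. Bodies with little coverage in both lists cannot differ by 10 points, so this order follows in part from the threshold. RPL32 was 60.6% covered in siME2+αKG, 7.52% in siME2 and 41.1% in siCtrl. UBE2S, a ubiquitin-conjugating enzyme of the anaphase-promoting complex, was 59.4%, 6.49% and 74.4% covered in the same order, the tubulin gene TUBA1C 87.3%, 36.6% and 83.2%, the keratin gene KRT8 83.4%, 34.8% and 94.97%, and the Rab prenylation gene RABGGTB 85.3%, 38.5% and 74.1%.

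Of 12 ribosomal protein gene bodies long enough, 10 were at least 10 points higher in siME2+αKG and 0 were lower by as much. Over all 15616 bodies 1.36% were that much higher, but only 4829 of them had any coverage. Among bodies with a mean coverage of 20% to 40%, 27.1% were that much higher and 9.95% lower. Among those of at least 40% the shares were 43.7% and 8.45%. Their coverage ran from 0 to 91.2% with a median of 65.5% in siME2+αKG, from 0 to 74.3% with a median of 28.2% in siME2, and from 0 to 91.6% with a median of 59.9% in siCtrl. RPS10 was covered over 70.5% in siME2+αKG, 26.6% in siME2 and 64.1% in siCtrl, and RPS3 over 75.4%, 37.6% and 64.7% in the same order. RPL22 was at 0 in all 3 lists. In the other direction, coverage was lower in siME2+αKG at UAP1L1 (0 in siME2+αKG, 32.1% in siME2), at CDKN1A (41.7% in siME2+αKG, 72.3% in siME2, 73.8% in siCtrl), at ANGPTL4, a lipoprotein lipase inhibitor gene (14.2%, 38.1% and 4.09%), at the lysosomal phosphatase gene ACP2 (25.2%, 49.1% and 53.2%) and at TRNP1 (58.6%, 80.8% and 78.9%).

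**Figure D5:**
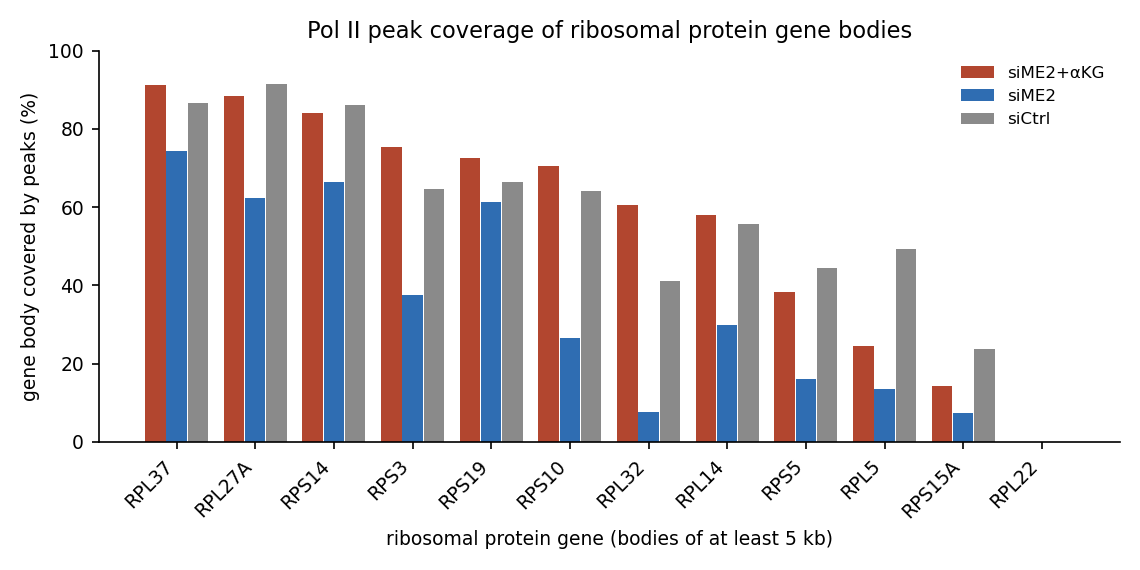
Share of the gene body covered by listed Pol II peaks (vertical, percent, from 0) for the 12 ribosomal protein genes with bodies of at least 5 kb, in siME2+αKG, siME2 and siCtrl from left to right within each gene. The siME2 bar is the lowest of the 3 at each of the 11 genes with any coverage, for example 7.52% at RPL32 against 60.6% in siME2+αKG.

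Most peaks of each list overlapped a peak of the other. Of the siME2+αKG peaks, 7299 (25.2%, interval 24.7% to 25.7%) overlapped no siME2 peak, and of the siME2 peaks, 6219 (21.3%, 20.8% to 21.8%) overlapped no siME2+αKG peak. By place, 10.8% of siME2+αKG and 10.4% of siME2 promoter peaks were without a partner, and 49.2% and 39.6% of gene body peaks, 40.6% and 31.6% of gene end peaks, and 31.1% and 29.3% of other peaks. The unpaired peaks were thin, with medians of 14 fragments in siME2+αKG and 11 in siME2. The siME2 library was the shallower of the 2, so more siME2+αKG peaks without a partner need not mean a difference in occupancy.

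Genes with a summit more than 5 kb from any peak of the other list numbered 162 promoters in siME2+αKG (1.34% of those listed) and 288 in siME2 (2.35%), 391 gene bodies (15.6%) and 314 (13.2%), and 538 gene ends (14.7%) and 328 (9.43%), each time siME2+αKG first. Promoters thus ran against the order of depth. The promoters with most fragments in siME2+αKG alone were ZNF391 (39), MCM3 (37), RDM1 (37), DPF1 (33) and the shared promoter of LIG1 and ZSWIM9 (33), and all 5 had a siCtrl summit within 200 bp, with 25 to 47 fragments. In siME2 alone they were CDK5R2 (28), ATP9A (27), FAM171A2 (27), PTPRE (25) and JAK3 (24), and these too had siCtrl summits there, with 14 to 31 fragments. In gene bodies, XRCC5, a subunit of the Ku repair complex, had 31 fragments in siME2+αKG alone, and STK10 had 25 in siME2 alone.

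At gene ends the entry with most fragments in siME2+αKG alone was BIRC5, with 30 fragments and no siCtrl summit within 200 bp, followed by IL12RB1 (30) and SUPT4H1, an elongation factor gene (23). In siME2 alone it was RUBCN (30). Of the 3 cell cycle and histone lists, 11 genes had an end summit listed in siME2+αKG and no siME2 peak within 5 kb, RRM2, FEN1 and POLA2 of DNA synthesis and BIRC5, TOP2A, CKAP2, PLK1, AURKA, CDK1, KIF20A and TPX2 of mitosis, with 10 to 30 fragments. These were 11 of 32 ends listed in siME2+αKG, against 14.7% of all ends, and the reverse held for 0 of 20 listed in siME2, against 9.43%. Over all other lists the numbers were 17 of 200 in siME2+αKG and 6 of 201 in siME2.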

How the data were processed

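Pol II ChIP-seq peak lists of 3 libraries of SK-Hep1 cells were used, 1 per condition. Inputs entered only through the peak caller. Per the submitters' processing notes, reads were aligned to hg19 with Bowtie2 2.3.5.1 and peaks called with MACS2 2.2.6. A different version, MACS 2.2.7.1, stands in the headers. Per the file headers, each ChIP library was called alone against its own input at a p-value threshold of 1e-05. In the deposited lists the pileup is a signal, the number of extended fragments over a summit after the larger data set was scaled to the smaller. The deposited fold enrichment is a ratio of pileup to local background, and the authors' −log10 scores, of a p-value and a q-value for each summit, served here only as a filter. Only the siME2+αKG pileup had been scaled down, by 0.900, and dividing by it gave fragments within 0.0055 of whole numbers.

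Heights were fragments per 1000000 filtered ChIP tags. The log2 ratio of siME2+αKG over siME2 carries an exact conditional binomial (Clopper-Pearson) interval, which was tested on simulated data. Genes were the 20098 protein-coding genes of GENCODE release 44 mapped to GRCh37 on chromosomes 1 to 22 and X. Promoters lie within 1 kb of any start, ends from 1 kb inside to 5 kb past the canonical end. All peaks of all genes entered, and peaks were shared at an overlap of at least 1 bp. The named genes were the 8 promoters and the 5 bodies and 5 ends per direction with the largest interval bound nearest 0, CCND1, ME2, up to 3 members of each list per direction, up to 5 genes listed in 1 library alone and the 5 largest differences in body coverage. Further names were picked after their values were seen, among them all list members past 1.5-fold in the cell cycle lists. The members, the 20 gene lists (556 genes) and the comparisons were chosen with earlier results of these data known. Of the listed symbols, PECAM1 and the histone genes H2AC18, H2BC7, H2BC8, H4C2 and H4C6 were not matched. Promoter sequence came from GRCh37. Some items are not reported here. Pairing by summits within 200 bp for named genes and lists, and medians within 4 groups of G and C content, were added after the data were seen. Analyses used Python 3.11.15, numpy 2.4.6, pandas 2.3.3, scipy 1.17.1 and matplotlib 3.10.9. No column was left out as belonging to another series.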

Additional observations from a re-analysis of the deposited data

How the results depend on the processing

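No paired analysis was possible because each condition had 1 ChIP library. With no replicates, no library could be left out. Counts below give higher before lower, at least 1.5-fold and then with an interval above or below 0. Per tag and base of fragment length, promoters gave 79 and 1126 (22 and 844), bodies 50 and 207 (5 and 43) and ends 87 and 261 (11 and 51, median log2 ratio -0.13). The pileup as deposited gave 73 and 1215 (19 and 973) for promoters, 47 and 217 (4 and 46) for bodies and 85 and 276 (11 and 63, median -0.14) for ends. Relative to the median promoter the counts were 259 and 340 (126 and 154). With summits within 200 bp, bodies gave 33 and 50 (1 and 6) and ends 60 and 43 (3 and 6, median -0.0041). With at least 20 fragments, 71 bodies (median 0.044) and 85 ends were lower. With ends cut at 3 kb, 87 were lower (9 and 12). At 50% overlap of both peaks, 13074 siME2+αKG and 13297 siME2 peaks had no partner, and with no peak within 1 kb, 3928 and 3156.

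Of the lists, immediate early (-0.11), ribosomal protein (-0.13) and heat shock genes (-0.10) turned negative per base of fragment length. Others turned positive relative to all promoters and, second, to promoters of like G and C content: glutamine and αKG metabolism 0.019 and 0.026, Pol II and pausing 0.031 and 0.026, p53 0.039 and 0.044, ATF4 0.054 and 0.026, hypoxia 0.056 and 0.074, YAP 0.041 and 0.057, cholesterol 0.051 and 0.029, NRF2 0.028 and 0.055, and matrix 0.079 and 0.071. In all, 110 of these summary values kept their side, 45 moved and 25 changed sign. For the genes named by interval bound among summits within 200 bp, 239 values kept their call, 10 lost it and 2 gained it. The other named genes were not carried through these alternatives. The causes were not tested. Thin body and end summits, near 20 fragments, limit what can be seen there.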
